A study of Homo sapiens with 38 samples.

Results

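The transcripts of 10 AP-1 and EGR factors were followed across all doses and times of a silica nanoparticle experiment in A549 cells. They were FOS, FOSB, FOSL1 and FOSL2 of the FOS family, JUN, JUNB and JUND of the JUN family, and EGR1, EGR2 and EGR3. They were taken by name, through the transcript accession that the array design gives each probe. Earlier results of these data were known when the members and the gene lists below were chosen. Each gene had 1 probe in 1 spot, so the 10 members stood among 34127 probes and 19720 named genes. A549 is a human alveolar epithelial line derived from a lung carcinoma, and every value below comes from this single line. Total RNA was labelled with the single dye Cy3 and hybridised on 38 arrays. The exposed cells received fumed amorphous silica nanoparticles (SiO2 NPs), and the control cells received serum-free medium alone. At 24 h, 4 arrays at 0.1 μg/cm2 and 4 at 1.0 μg/cm2 shared 4 control arrays, and 4 arrays at 1.5 μg/cm2 had 4 control arrays of their own. At 3.0 and 6.0 μg/cm2 there were 3 arrays per dose at 24 h and 3 per dose at 72 h, and at each time both doses shared 3 control arrays. The labels give each array of a group the same number as a biological and as a technical replicate, although the treatment description speaks of 3 cultures. The p-values therefore measure the spread between these arrays.

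A level is the log2 of the processed intensity minus the log2 of the 75th percentile of the same array, so a level of 0 is a spot as bright as that percentile. The percentile ranged from 546 to 2264 intensity units over the 38 arrays, and 54.36% to 73.55% of the probes were well above background. No spot was saturated. All 6 epithelial markers that were looked up (EPCAM, CDH1, KRT7, KRT8, KRT18 and KRT19) were well above background on all 38 arrays. Of 7 alveolar type II markers only ABCA3 and SFTPC were, and NKX2-1 was above background on 1 array and SFTPB on 2. Of the markers of other cell types, 1 of 6 for fibroblasts (COL1A1), 3 of 5 for leukocytes and macrophages (CD14, CD68 and PTPRC) and 0 of 4 for endothelium were above background on every array, while COL1A2, PDGFRB, MRC1 and KDR were above it on none. Among the groups of 4 arrays, replicates 1 and 2, and replicates 3 and 4, resembled each other. The SD over probes of the log2 difference was 0.182 to 0.222 within these pairs, with 0.344 and 0.54 in the controls of 1.5 μg/cm2 as the exceptions, and 0.29 to 0.562 between arrays of different pairs. It was 0.171 to 0.351 between arrays of the groups of 3.

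AP-1 is a family of dimers in which a FOS protein pairs with a JUN protein, or JUN proteins pair with each other, through a leucine zipper. The EGR proteins are zinc finger factors that bind GC-rich elements. In most cells FOS, FOSB, JUN, JUNB and the EGR genes are immediate-early genes: they are transcribed within minutes of a growth factor or stress signal, through MAP kinases and the serum response factor, and their transcripts are short-lived. FOSL1 and FOSL2 encode FRA-1 and FRA-2, which lack the strong activation domains of FOS and FOSB, and FOSL1 is itself a gene that AP-1 switches on with a delay. AP-1 is known in the airway epithelium as a factor that responds to oxidants and mineral particles.

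FOSB, JUNB and JUND lie on chromosome 19. In RefSeq coordinates of GRCh38.p14, FOS spans chr14:75278828-75282230, FOSB chr19:45467996-45475179, FOSL1 chr11:65892049-65900545 and FOSL2 chr2:28392858-28417317. JUN spans chr1:58780791-58784047, JUNB chr19:12791486-12793315 and JUND chr19:18279694-18281622. EGR1 spans chr5:138465479-138469303 and EGR2 chr10:62811996-62819167. RefSeq promoter windows, from 250 bases before to 50 bases after a start site, were used for 8 members in 10 windows. EGR3 was left out of this search, and no window was matched for FOSL1. They were searched on both strands for the elements through which these genes are known to be controlled. The CArG box, the site of the serum response factor, was in 1.29% of all 35116 windows and in 2 of the 10. An AP-1 element (TGAGTCA or TGACTCA) was in 4.95% of all windows and in 1 of the 10. The related TGACATCA, known from the JUN promoter, was in 2.61% and in 1, and the cyclic AMP response element TGACGTCA in 1.85% and in 1, that of JUND. An EGR element (GCGNGGGCG) was in 9.43% and in 2. TATAAA was in 11.5% and in 3. The stretches below are shown because they hold these matches in members whose values are described below, and the capitals mark the matches. The EGR1 stretch holds 1 EGR element and 2 CArG boxes, that of EGR2 1 CArG box, that of FOSL2 an AP-1 element and that of JUN the sequence TGACATCA.

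EGR1, chr5:138465274-138465418, plus strand, ahead of the start: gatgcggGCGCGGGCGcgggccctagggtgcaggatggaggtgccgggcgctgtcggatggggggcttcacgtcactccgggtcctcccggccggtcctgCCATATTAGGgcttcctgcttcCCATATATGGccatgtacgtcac
EGR2, chr10:62816407-62816466, minus strand, positions −100 to −41 from a start site inside the annotated gene: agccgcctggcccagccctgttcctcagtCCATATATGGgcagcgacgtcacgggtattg
FOSL2, chr2:28392798-28392872, plus strand, positions −60 to 15 from the start: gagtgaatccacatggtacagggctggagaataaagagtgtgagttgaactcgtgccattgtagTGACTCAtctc
JUN, chr1:58784078-58784147, minus strand, positions −100 to −31 from the start: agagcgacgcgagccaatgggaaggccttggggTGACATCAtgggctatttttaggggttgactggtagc

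FOS, FOSB and JUNB are the members with TATAAA, which begins at positions −33, −30 and −31 from their start sites. Each stretch covers positions −50 to −1 on the plus strand.

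FOS, chr14:75278778-75278827: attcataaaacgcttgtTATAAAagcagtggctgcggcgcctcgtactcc
FOSB, chr19:45467946-45467995: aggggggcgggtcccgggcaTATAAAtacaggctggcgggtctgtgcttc
JUNB, chr19:12791436-12791485: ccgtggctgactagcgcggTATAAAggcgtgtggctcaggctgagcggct

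The matches are descriptions of these windows, and no binding was measured.

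All members but EGR3 were well above background on all 38 arrays. EGR3 was so on all 20 arrays of the doses up to 1.5 μg/cm2 and on 1 of the 18 arrays of the higher doses, a control at 72 h, and was not tested there. Unexposed cells differed widely between the experiments. The FOS level in control cells at 24 h was 5.01 ± 0.26 (SD, n = 4) in the experiment with 0.1 and 1.0 μg/cm2, 4.29 ± 0.06 (SD, n = 4) in that with 1.5 μg/cm2 and 2.85 ± 0.09 (SD, n = 3) in that with 3.0 and 6.0 μg/cm2. FOSB was at 2.97 ± 0.31 (SD, n = 4), 3.51 ± 0.25 (SD, n = 4) and −0.17 ± 0.39 (SD, n = 3) in the same order. EGR2, a factor best known from nerve and immune cells, was at 0.04 ± 0.12 (SD, n = 4), −0.49 ± 0.10 (SD, n = 4) and −3.91 ± 0.07 (SD, n = 3). For these 3 genes no control array of the highest-dose experiment reached the level of any control array of the others. JUN had another order, with 2.24 ± 0.05 (SD, n = 4) in the first experiment, 0.26 ± 0.10 (SD, n = 4) in the second and 0.74 ± 0.25 (SD, n = 3) in the third. The scan day differed between the experiments, and the version of the scanner software differed between the first and the others. Those differences and a difference between cultures cannot be told apart, so each dose is set only against its own controls below.

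**Figure D1:**
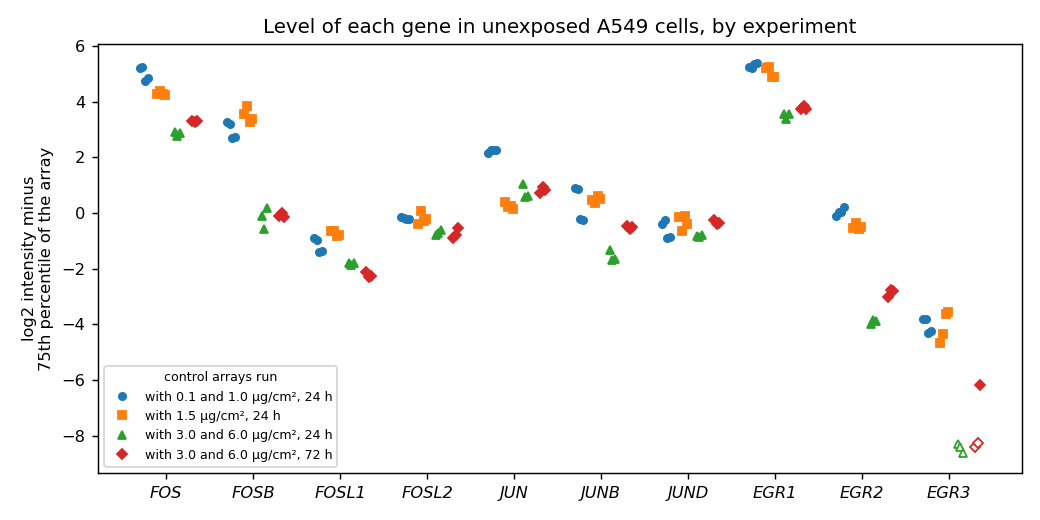
Level of each gene (log2 intensity minus the 75th percentile of the array, vertical axis) on every array of unexposed A549 cells, 1 point per array, coloured by experiment. Open points are arrays on which the probe was not well above background. FOS, FOSB, EGR1 and EGR2 were lowest in the control arrays run with 3.0 and 6.0 μg/cm2 at 24 h, apart from FOSB, whose 24 h and 72 h controls overlap there.

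At 0.1 and 1.0 μg/cm2 no member passed the test, by limma or by the methods' t-test with the same adjustment. A member was called when the adjusted p of limma over all probes tested was under 0.05 and the fold change at least 1.5. At 0.1 μg/cm2 the 10 members ranged from −0.54 to 0.39 in log2 difference, and over all 21653 probes tested 0% were called higher and 0% lower, with 2163 probes, 1 of them a member, at an unadjusted p under 0.05. FOSB, which encodes a close relative of FOS, had the lowest value, −0.54 ± 0.17 (SE), with an adjusted p of 0.359. It was at 3.27, 3.2, 2.68 and 2.73 in the controls and at 2.26, 2.25, 2.63 and 2.58 in the exposed cells, without overlap. These are values of bulk RNA, in which fewer cells of a type and less RNA per cell cannot be told apart.

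At 1.0 μg/cm2 all 10 members lay below their controls, and 8 had an unadjusted p under 0.05, but none had an adjusted p under 0.05. The 75th percentile that is subtracted was 1307 to 1482 intensity units on the control arrays and 1784 to 2123 on the exposed ones. The direction of the members is that after this subtraction. Over all 20975 probes 0.00477% were called higher and 0.00477% lower, 1 probe each way, while 3759 had an unadjusted p under 0.05. EGR3, which shares the DNA element of EGR1, was at −3.82, −3.82, −4.29 and −4.24 in the controls and at −5.13, −4.88, −5.05 and −4.96 in the exposed cells. All 4 exposed arrays lay below all 4 control arrays, and the difference of −0.96 ± 0.13 (SE) had an adjusted p of 0.0687. FOSB, against the same controls, was at 2.28, 2.22, 1.66 and 1.62, a difference of −1.02 ± 0.20 (SE) with an adjusted p of 0.103. The groups did not overlap for FOSB either, and in both groups replicates 1 and 2 lay above replicates 3 and 4. EGR1, the most widely expressed EGR factor, differed by −0.64 ± 0.15 (SE) with an adjusted p of 0.122 and EGR2 by −0.73 ± 0.24 (SE) with an adjusted p of 0.187. FOS, the founding member of its family, differed by −0.49 ± 0.15 (SE) with an adjusted p of 0.171. The median over the 10 members was −0.49, against −0.04 over all probes tested. The exposed arrays of both doses were compared with the same 4 controls. With replicates 1 and 2, and 3 and 4, as pairs in a random block, limma estimated a correlation of 0.808 (0.873 at 0.1 μg/cm2). The 4 arrays of a group were thus not 4 independent values, although the SE and p above treat them so. With that block, or with the means of the pairs, 0 of all probes were called at 1.0 μg/cm2.

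At 1.5 μg/cm2 FOSL2 was called higher and EGR2 lower, 2 of 10 members. Over all 20622 probes 2.38% were called higher and 0.0582% lower. FOSL2, a FOS family member without the activation domain of FOS, was at −0.41, 0.09, −0.30 and −0.20 in the controls and at 0.38, 0.32, 0.53 and 0.46 in the exposed cells. Every exposed array was above every control array, a 1.55-fold difference (log2 0.63 ± 0.12, SE, adjusted p = 0.0258). EGR2 was at −0.52, −0.36, −0.58 and −0.51 in the controls and at −1.18, −1.07, −0.99 and −1.13 in the exposed cells. It fell by 0.60 on the log2 scale, or 1.51-fold, without overlap (log2 −0.60 ± 0.08, SE, adjusted p = 0.00803).

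FOSB and FOS had adjusted p just above 0.05 at 1.5 μg/cm2. FOSB, at 3.54, 3.85, 3.27 and 3.39 in the controls, was at 3.98, 3.99, 4.18 and 4.25 in the exposed cells, a log2 difference of 0.59 ± 0.14 (SE) with an adjusted p of 0.0595. FOS was at 4.28, 4.39, 4.26 and 4.25 in the controls and at 3.97, 4.02, 3.96 and 3.92 in the exposed cells, a log2 difference of −0.33 ± 0.07 (SE) with an adjusted p of 0.053, or 1.25-fold and so under the fold threshold as well. The groups overlapped for neither gene. The FOSB difference was above 0 here and below 0 at 1.0 μg/cm2, in experiments with different controls. The remaining 6 members had log2 differences from −0.23 for JUN to 0.25 for JUND. Replicates 1 and 2 were scanned on another day than replicates 3 and 4. Within the first day the log2 differences were 0.51 for FOSL2 and −0.69 for EGR2, and within the second 0.75 and −0.51. With the scan day as a block FOSL2 and EGR2 kept their calls and FOSB was called higher (log2 0.59, adjusted p = 0.0461), as it was with quantile normalization (0.61, adjusted p = 0.0334), within the second day (0.89, adjusted p = 0.0115) and without control replicate 2 (0.70, adjusted p = 0.0222). A fit within 1 day had only 2 arrays per group. Over all probes the 503 calls became 0 within the first day and 2167 within the second, so calls within a day carry little weight. Each replicate number was also 1 slide with 1 control and 1 exposed array, and with that number as a block EGR2 kept its call and FOSL2 lost it. EGR2 went under the fold threshold with normexp (−0.53) and the series matrix (−0.55), and with the means of replicates 1 and 2 and of replicates 3 and 4 as the only 2 values of a group, neither FOSL2 nor EGR2 passed. FOSL2 lost its call without any 1 of the 4 exposed arrays or of control replicates 1, 3 and 4 (log2 0.56 to 0.66), and EGR2 without exposed replicate 1 or control replicate 2 (−0.57 and −0.55).

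**Figure D2:**
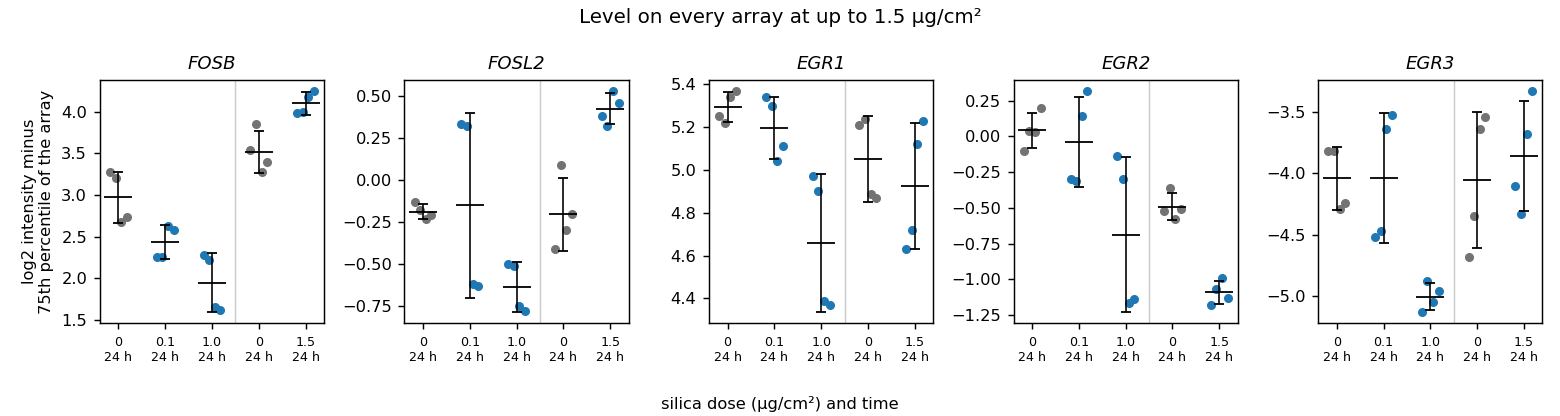
Level of FOSB, FOSL2, EGR1, EGR2 and EGR3 (log2 intensity minus the 75th percentile of the array, vertical axis) on every array at up to 1.5 μg/cm2, with the mean and SD of each group as bars. The line in each panel separates the 2 experiments, each with its own unexposed arrays in grey. At 1.0 μg/cm2 the 4 exposed arrays lie below the controls in all 5 panels, and at 1.5 μg/cm2 they lie above them for FOSB and FOSL2 and below them for EGR2.

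At 3.0 and 6.0 μg/cm2 the members moved in both directions. After 24 h FOSL1 was called higher at both doses, and FOS, EGR1 and EGR2 were called lower at both doses, so that 1 of the 9 members tested rose and 3 fell in each comparison. Over all probes 1.45% were called higher and 1.47% lower at 3.0 μg/cm2, of 22091 tested, and 4.14% and 5.17% at 6.0 μg/cm2, of 22173 tested. Both doses were compared with the same 3 controls.

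FOSL1, which encodes FRA-1, was at −1.78, −1.86 and −1.78 in the controls, at −1.21, −1.22 and −1.05 at 3.0 μg/cm2 and at −0.70, −0.55 and −0.38 at 6.0 μg/cm2. The 3 groups did not overlap and followed the order of the dose. It was 1.56-fold higher at 3.0 μg/cm2 (log2 0.64 ± 0.06, SE, adjusted p = 0.00244) and 2.4-fold higher at 6.0 μg/cm2 (log2 1.26 ± 0.09, SE, adjusted p = 0.000171). At 3.0 μg/cm2 it went under the fold threshold with normexp (0.53) and with the series matrix (0.52). FOSL2 lay in the same direction below the fold threshold, with a log2 difference of 0.46 ± 0.08 (SE, adjusted p = 0.0122) at 3.0 μg/cm2 and 0.52 ± 0.07 (SE, adjusted p = 0.00205) at 6.0 μg/cm2.

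FOS was at 2.91, 2.76 and 2.89 in the controls, at 2.08, 2.20 and 2.23 at 3.0 μg/cm2 and at 2.12, 2.22 and 2.07 at 6.0 μg/cm2. Both exposed groups lay below all controls, by 1.6-fold at 3.0 μg/cm2 (log2 −0.68 ± 0.07, SE, adjusted p = 0.00244) and by 1.64-fold at 6.0 μg/cm2 (log2 −0.72 ± 0.07, SE, adjusted p = 0.00062), and the groups of both doses overlapped each other. EGR1 was at 3.56, 3.36 and 3.57 in the controls, at 2.69, 2.78 and 2.71 at 3.0 μg/cm2 and at 2.5, 2.47 and 2.39 at 6.0 μg/cm2. Its 3 groups did not overlap and fell in the order of the dose, by 1.71-fold (log2 −0.77 ± 0.07, SE, adjusted p = 0.00194) and by 2.06-fold (log2 −1.05 ± 0.08, SE, adjusted p = 0.000201). EGR2 was at −3.98, −3.85 and −3.89 in the controls, at −4.99, −5.01 and −5.68 at 3.0 μg/cm2 and at −4.82, −4.68 and −5.56 at 6.0 μg/cm2. All exposed arrays were below the controls, by 2.5-fold (log2 −1.32 ± 0.18, SE, adjusted p = 0.00697) and by 2.16-fold (log2 −1.11 ± 0.22, SE, adjusted p = 0.00936). EGR2 was dim in this experiment, with processed intensities from 14.1 to 93.5 over its 18 arrays, and its value depended on the background correction: with normexp the log2 difference was −0.41 at 3.0 μg/cm2, under the fold threshold, and −0.08 at 6.0 μg/cm2 (adjusted p = 0.812). Its calls at both doses were also lost with the series matrix and with the methods' t-test.

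The JUN family did not pass the test at 24 h. JUN, the main partner of the FOS proteins, had a log2 difference of 0.00 (95% interval −0.30 to 0.29) at 3.0 μg/cm2 and 0.01 (−0.30 to 0.31) at 6.0 μg/cm2. JUNB, which is usually a weaker activator than JUN, had 0.03 (−0.39 to 0.45) and −0.08 (−0.41 to 0.26). JUND, the member that is usually present without a stimulus, had 0.03 (−0.15 to 0.21) and 0.24 (0.05 to 0.42), the latter with an adjusted p of 0.0554. FOSB, with a log2 difference of −0.64 ± 0.18 (SE, adjusted p = 0.0715) at 3.0 μg/cm2 and −0.57 ± 0.20 (SE, adjusted p = 0.069) at 6.0 μg/cm2, had control arrays at −0.11, −0.59 and 0.18 and exposed arrays from −0.98 to −0.59. Without control replicate 2, its lowest control, FOSB was called lower at both doses (log2 −0.84 and −0.78).

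**Figure D3:**
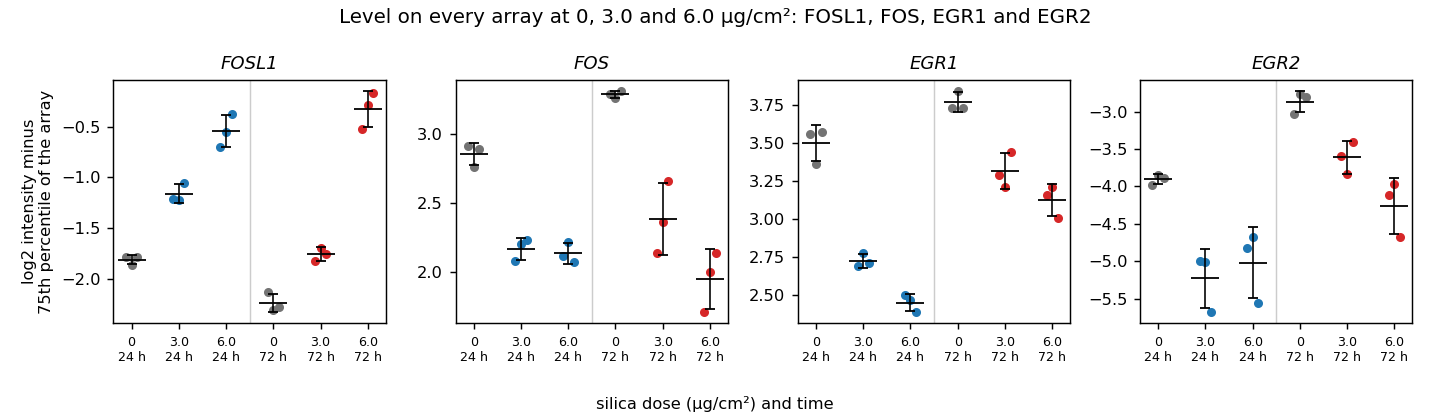
Level of FOSL1, FOS, EGR1 and EGR2 (log2 intensity minus the 75th percentile of the array, vertical axis) on every array of the experiment with 3.0 and 6.0 μg/cm2, with the mean and SD of each group of 3 as bars. Unexposed cells are grey, 24 h is blue and 72 h is red. FOSL1 lies above its controls and FOS, EGR1 and EGR2 lie below theirs at both doses and both times.

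At 72 h more of the members lay below their controls. At 3.0 μg/cm2 FOS, FOSB, JUNB and EGR2 were called lower, 4 of 9 members tested, and none was called higher. At 6.0 μg/cm2 FOSL1 was called higher and FOS, FOSB, JUNB, EGR1 and EGR2 lower, 6 of 9. Over all probes 2.23% were called higher and 3.64% lower at 3.0 μg/cm2, of 21950 tested, and 7.05% and 10.2% at 6.0 μg/cm2, of 21857 tested. All exposed arrays at 72 h were scanned on another day than their controls, so that exposure and scan day cannot be told apart at this time.

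FOSL1 was at −2.13, −2.30 and −2.27 in the 72 h controls, at −1.82, −1.69 and −1.75 at 3.0 μg/cm2 and at −0.52, −0.29 and −0.17 at 6.0 μg/cm2. The groups followed the dose without overlap, and at 6.0 μg/cm2 the gene was 3.74-fold higher (log2 1.90 ± 0.11, SE, adjusted p = 6.52e-05), the largest fold change of any member in the comparisons with controls. At 3.0 μg/cm2 the log2 difference of 0.48 ± 0.07 (SE, adjusted p = 0.00695) was under the fold threshold. FOS was at 3.29, 3.26 and 3.31 in the controls, at 2.14, 2.36 and 2.66 at 3.0 μg/cm2 and at 1.71, 2.00 and 2.14 at 6.0 μg/cm2. It was 1.87-fold lower at 3.0 μg/cm2 (log2 −0.90 ± 0.13, SE, adjusted p = 0.0075) and 2.53-fold lower at 6.0 μg/cm2 (log2 −1.34 ± 0.11, SE, adjusted p = 0.000243). The SD of FOS was 0.03 among the controls, 0.26 at 3.0 μg/cm2 and 0.22 at 6.0 μg/cm2, and no exposed array reached a control.

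FOSB was at −0.12, 0.00 and −0.13 in the controls, at −1.35, −1.13 and −0.61 at 3.0 μg/cm2 and at −1.17, −0.87 and −0.68 at 6.0 μg/cm2. It fell without overlap at both doses (log2 −0.95 ± 0.19, SE, adjusted p = 0.0174, and −0.82 ± 0.13, SE, adjusted p = 0.00281). The fall at 3.0 μg/cm2 lost its call without exposed replicate 2 or without control replicate 1 or 2 (adjusted p up to 0.0724). It also lost its call with the methods' t-test and with no filter on dim probes. EGR1 was at 3.73, 3.84 and 3.73 in the controls, at 3.29, 3.21 and 3.44 at 3.0 μg/cm2 and at 3.16, 3.21 and 3.01 at 6.0 μg/cm2. Its log2 difference was −0.46 ± 0.08 (SE, adjusted p = 0.0106) at 3.0 μg/cm2, under the fold threshold, and −0.64 ± 0.08 (SE, adjusted p = 0.000994) at 6.0 μg/cm2, where leaving out exposed replicate 3 gave −0.58, under the fold threshold. EGR1 at 6.0 μg/cm2 also went under the fold threshold with the series matrix. EGR2 was at −3.03, −2.76 and −2.81 in the controls, at −3.59, −3.84 and −3.41 at 3.0 μg/cm2 and at −4.12, −3.97 and −4.68 at 6.0 μg/cm2. It was 1.68-fold lower (log2 −0.75 ± 0.13, SE, adjusted p = 0.0114) and 2.62-fold lower (log2 −1.39 ± 0.19, SE, adjusted p = 0.00164), and with normexp it was −0.44 at 3.0 μg/cm2, where the call was lost, and −0.73 at 6.0 μg/cm2, where it was kept. The call at 3.0 μg/cm2 was also lost without control replicate 2 (−0.69).

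All 3 JUN genes were below their controls at 72 h, JUNB past the fold threshold. JUNB was at −0.46, −0.57 and −0.50 in the controls, at −1.27, −1.0 and −1.04 at 3.0 μg/cm2 and at −1.37, −1.21 and −1.15 at 6.0 μg/cm2. The 1.51-fold fall at 3.0 μg/cm2 (log2 −0.59 ± 0.09, SE, adjusted p = 0.0071) sat at the threshold and went below it without exposed replicate 1 (−0.51) or control replicate 1 (−0.57), and with normexp or the series matrix. The fall at 6.0 μg/cm2 was 1.67-fold (log2 −0.74 ± 0.08, SE, adjusted p = 0.000622). JUN had a log2 difference of −0.44 ± 0.08 (SE, adjusted p = 0.0115) at 3.0 μg/cm2 and −0.34 ± 0.09 (SE, adjusted p = 0.0231) at 6.0 μg/cm2. JUND had −0.46 ± 0.08 (SE, adjusted p = 0.0128) and −0.45 ± 0.10 (SE, adjusted p = 0.0127). For each of the 3 genes every exposed array was below every control array at both doses. An adjusted p under 0.05, in either direction, was common among all probes. It was reached by 5925 of 21950 at 3.0 μg/cm2 and by 10169 of 21857 at 6.0 μg/cm2. The share of all probes without overlap was not counted. FOSL2 lay above its controls, with 0.33 ± 0.11 (SE, adjusted p = 0.0717) and 0.40 ± 0.11 (SE, adjusted p = 0.0262). EGR3, with processed intensities from 1.68 to 8.57 over the 18 arrays of this experiment, gave no fold change.

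**Figure D4:**
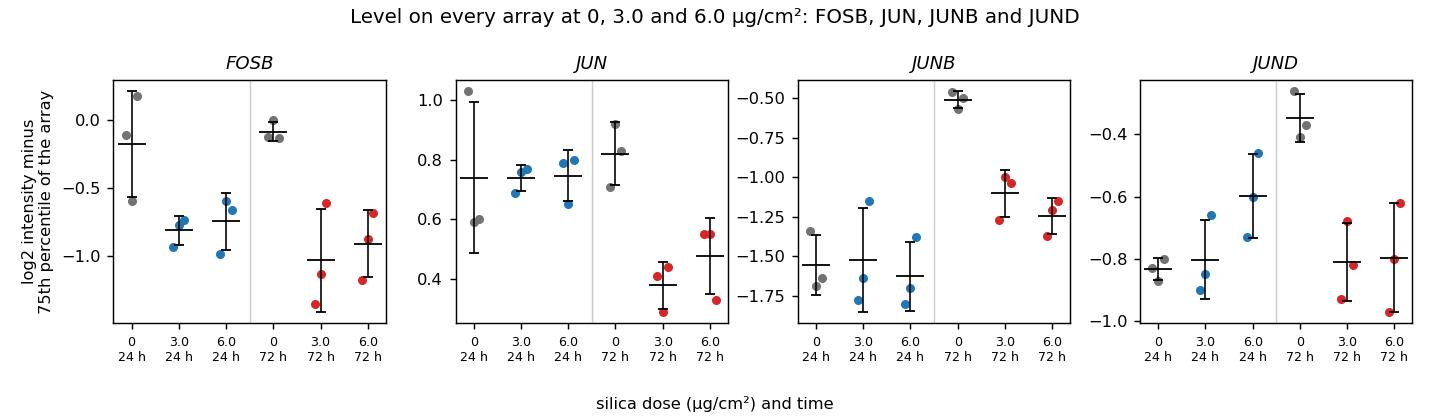
Level of FOSB, JUN, JUNB and JUND (log2 intensity minus the 75th percentile of the array, vertical axis) on every array of the experiment with 3.0 and 6.0 μg/cm2, with the mean and SD of each group of 3 as bars. Unexposed cells are grey, 24 h is blue and 72 h is red. At 24 h the exposed arrays of JUN, JUNB and JUND lie near or among their controls, and at 72 h those of all 4 genes lie below them.

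**Figure D5:**
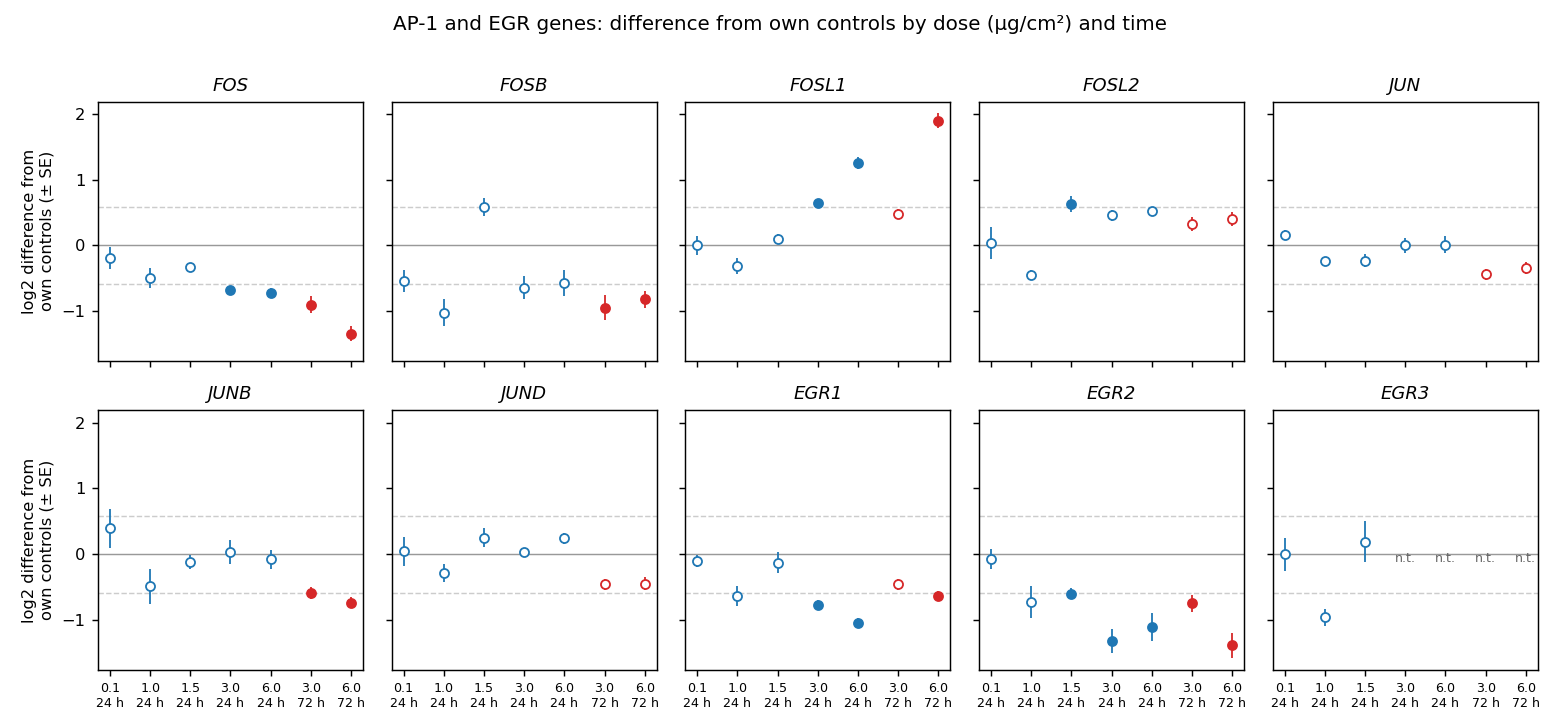
Log2 difference of each gene from its own controls (vertical axis, ± SE) at each dose in μg/cm2 and time. Filled points passed the adjusted p and the fold threshold, which is drawn as dashed lines, open points did not, and n.t. marks EGR3 where it was not tested. FOSL1 rises to 1.90 at 6.0 μg/cm2 and 72 h while FOS falls to −1.34.

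The higher dose was then set directly against the lower. FOSL1 was called higher at 6.0 than at 3.0 μg/cm2 at both times, by 1.54-fold at 24 h (log2 0.62 ± 0.09, SE, adjusted p = 0.0154) and by 2.69-fold at 72 h (log2 1.43 ± 0.10, SE, adjusted p = 0.00203), and it was the only one of the 9 members tested that was called. Over all probes 0.754% were called higher and 0.849% lower at 24 h, of 22139 tested, and 1.12% and 3.71% at 72 h, of 21603 tested. The call of FOSL1 at 24 h was close to the threshold: without exposed replicate 3 at 6.0 μg/cm2, or without replicate 1 or 2 at 3.0 μg/cm2, it was lost. It was also lost with normexp, the series matrix, no filter on dim probes and the methods' t-test. EGR1 at 24 h was lower at the higher dose by 0.27 on the log2 scale, or −0.27 ± 0.06 (SE, adjusted p = 0.0318), under the fold threshold. For FOS the difference between the doses was −0.03 (95% interval −0.19 to 0.12) at 24 h and −0.44 (−0.84 to −0.03, adjusted p = 0.13) at 72 h. EGR2 at 72 h differed by −0.64 (−1.15 to −0.14, adjusted p = 0.0884), and this difference was called when arrays of the same slide were treated as a random block (log2 −0.80, adjusted p = 0.0327).

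Some members differed between the times in unexposed cells as well. Between 24 h and 72 h JUNB rose from −1.34, −1.69 and −1.64 to −0.46, −0.57 and −0.50, a 2.06-fold difference (log2 1.04 ± 0.10, SE, adjusted p = 0.000365). EGR2 rose from −3.98, −3.85 and −3.89 to −3.03, −2.76 and −2.81, or 2.05-fold (log2 1.04 ± 0.09, SE, adjusted p = 0.000214). Over all 22128 probes 12.4% were called higher at 72 h and 7.32% lower, beside 2 of 9 members higher and 0 lower. JUND (log2 0.48 ± 0.06, SE, adjusted p = 0.000978), FOS (0.43 ± 0.06, SE, adjusted p = 0.00156) and EGR1 (0.27 ± 0.08, SE, adjusted p = 0.023) were higher at 72 h and FOSL1 lower (−0.43 ± 0.07, SE, adjusted p = 0.00198), all under the fold threshold. Without a fold threshold 13010 of the 22128 probes had an adjusted p under 0.05, so such differences were common among all probes. The 3 control arrays at 72 h are also those against which the exposed cells were set at 72 h, so these values and those are not independent.

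Whether the response itself differed between the times was tested as an interaction in 1 fit per dose. At 6.0 μg/cm2 the response at 72 h exceeded that at 24 h for FOSL1 (log2 0.64 ± 0.14, SE, adjusted p = 0.00569) and lay below it for FOS (−0.62 ± 0.14, SE, adjusted p = 0.00536), JUNB (−0.66 ± 0.17, SE, adjusted p = 0.012) and JUND (−0.69 ± 0.13, SE, adjusted p = 0.00272). These were 4 of 9 members, with 8.2% of the 22602 probes called higher and 9.09% lower. EGR1 had the opposite sign, 0.41 ± 0.11 (SE, adjusted p = 0.0125) and under the fold threshold, since its response of −1.05 at 24 h was −0.64 at 72 h. At 3.0 μg/cm2 none of the 9 members was called, with 2.37% of the 22605 probes called higher and 2.91% lower, and limma gave 5 members an unadjusted p under 0.05. JUND alone of the members had an adjusted p under 0.05 (−0.49 ± 0.11, SE, adjusted p = 0.0155), as had 4666 of all probes. At 6.0 μg/cm2 JUND was at −0.59 ± 0.13 (SD, n = 3) at 24 h and −0.80 ± 0.18 (SD, n = 3) at 72 h, while its controls were at −0.83 ± 0.03 (SD, n = 3) and −0.35 ± 0.08 (SD, n = 3). JUNB was at −1.63 ± 0.22 (SD, n = 3) and −1.25 ± 0.11 (SD, n = 3) in the exposed cells and at −1.55 ± 0.19 (SD, n = 3) and −0.51 ± 0.06 (SD, n = 3) in the controls. The interaction of FOS went under the fold threshold without replicate 1 at 6.0 μg/cm2 and 72 h (−0.50), replicate 2 at 6.0 μg/cm2 and 24 h (−0.58) or control replicate 2 at 24 h (−0.57), that of FOSL1 without replicate 3 at 72 h (0.56) or replicate 1 at 24 h (0.57), and that of JUNB without replicate 3 at 24 h (−0.54). With normexp the interactions of FOS and FOSL1 went under the fold threshold, and with the series matrix those of FOS, FOSL1 and JUNB. JUNB at 3.0 μg/cm2 was called only without exposed replicate 1 at 24 h (−0.75). The time of these exposed arrays and their scan day cannot be told apart.

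Other genes of the same pathways were read from 8 lists with 121 genes in all. The lists were chosen with earlier results of these data known. Their counts beside the shares of all probes are therefore descriptions and not independent tests. Of 15 possible AP-1 partners, 2 of 13 tested rose at 3.0 μg/cm2 and 24 h and 4 of 12 at 6.0 μg/cm2, and none fell, against medians of 0.20 and 0.34 (−0.01 and −0.02 over all probes). ATF3, a stress-induced factor that pairs with JUN proteins, was 2.97-fold higher at 6.0 μg/cm2 (log2 1.57 ± 0.11, SE), MAFF 2.85-fold (1.51 ± 0.07, SE), BATF2 1.72-fold (0.78 ± 0.07, SE) and MAFK 1.67-fold (0.74 ± 0.08, SE). At 72 h no partner was called at either dose. Of 23 genes known to be controlled through AP-1, 8 of 19 tested rose at 3.0 μg/cm2 and 24 h, 10 of 20 at 6.0 μg/cm2 and 24 h, 4 of 18 at 3.0 μg/cm2 and 72 h and 9 of 17 at 6.0 μg/cm2 and 72 h, and none fell in these 4 comparisons. The medians were 0.26, 0.65, 0.36 and 0.66 in that order, and −0.01, −0.02, 0.04 and 0.05 over all probes. In the same order 1.45%, 4.14%, 2.23% and 7.05% of all probes tested were called higher, and 1.47%, 5.17%, 3.64% and 10.2% lower. MMP1, a collagenase with an AP-1 element in its promoter, was 17.7-fold higher at 6.0 μg/cm2 and 24 h (log2 4.15 ± 0.12, SE), the cytokine IL6 13.4-fold (3.74 ± 0.12, SE) and MMP10 3.55-fold (1.83 ± 0.10, SE), with adjusted p of 1.45e-05, 1.45e-05 and 6.89e-05.

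Among 29 other immediate-early genes, 28 were tested at the higher doses. At 24 h 3 rose and none fell at 3.0 μg/cm2, and 6 rose and 1 fell at 6.0 μg/cm2. At 72 h 1 rose and 1 fell at 3.0 μg/cm2, and 4 rose and 4 fell at 6.0 μg/cm2. Over all probes tested, 1.45% were called higher and 1.47% lower at 3.0 μg/cm2 and 24 h, and 4.14% and 5.17% at 6.0 μg/cm2. The same shares at 72 h were 2.23% and 3.64% at the lower of these doses and 7.05% and 10.2% at the higher. The list had a median log2 difference of −0.03 at 3.0 μg/cm2 and 0.16 at 6.0 μg/cm2 after 24 h, where all probes had −0.01 and −0.02. After 72 h its medians were −0.16 and −0.11, where all probes had 0.04 and 0.05. GEM, a small GTPase, was 2.96-fold higher at 6.0 μg/cm2 and 24 h (log2 1.57 ± 0.12, SE), ARC 2.81-fold (1.49 ± 0.13, SE), KLF6 2.02-fold (1.01 ± 0.08, SE) and the kinase SGK1 1.94-fold (0.95 ± 0.06, SE). The gene that fell at that dose and time was HES1 (−0.66 ± 0.08, SE), named here after its value was seen. Of 10 dual-specificity phosphatases, which switch off MAP kinases, DUSP5 (2.68-fold, log2 1.42 ± 0.07, SE) and DUSP16 (1.76-fold, 0.81 ± 0.06, SE) rose among 8 tested at 6.0 μg/cm2 and 24 h. Of 27 MAP kinases and their kinases tested, 2 rose and 4 fell at that dose and time, and 2 rose and 2 fell at 72 h, and their median log2 differences were 0.09 and 0.05. MAPK10 fell by 1.21 on the log2 scale at 72 h (−1.21 ± 0.16, SE), MAP2K6 by 0.66 at 24 h (−0.66 ± 0.07, SE), and MAP2K3 (0.71 ± 0.07, SE) and RPS6KA4 (0.78 ± 0.10, SE) rose at 72 h. The serum response factor and its cofactors, 6 genes, had no call at 3.0 or 6.0 μg/cm2, and ELK4 rose at 1.5 μg/cm2 (0.60 ± 0.09, SE). Of the EGR co-repressors NAB1 rose at 1.5 μg/cm2 (0.60 ± 0.12, SE). Of 6 tested genes known as EGR1 targets, PDGFA was the only one called in the comparisons of exposed cells with controls, with a fall at 6.0 μg/cm2 and 72 h (−0.60 ± 0.14, SE). At 0.1 and 1.0 μg/cm2 no gene of the 8 lists was called.

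The likeness of the patterns was described over the 24 exposed arrays, each as the log2 difference from the mean of its own controls, so that arrays with common controls are not independent. FOS and FOSL1 had a Pearson correlation of −0.76, FOS and EGR2 0.71, EGR1 and EGR2 0.70, JUN and JUNB 0.78, and FOSL1 and FOSL2 0.52. The other pairs of FOS, FOSL1, JUN or EGR1 with a member ranged from −0.63 (FOSL1 and EGR2) to 0.61 (FOS and JUNB). Among them FOS and EGR1 had 0.48, FOS and JUN 0.45, EGR1 and JUN 0.20, and JUN and FOSB 0.12. Among 17383 named probes, those most like FOSL1 were LY6K, BCL2A1 and RIN1 (0.96 each) and those most like FOS were DRC12 and ZNF395 (0.91 each) and ABAT (0.90). The 3 nearest to EGR1 were DIAPH3 (0.92), S100A10 (0.89) and SAYSD1 (0.89), and for JUN they were KATNAL1 (0.80), MED18 (0.79) and JUNB.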

How the data were processed

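Total RNA of A549 cells was measured on 38 single-colour arrays, whose design, per the file headers, was annotated on hg19. For every array the authors deposited scanner output, in which the processed intensity is corrected for background but not normalized between arrays, and a series matrix whose intensity values equalled the median signal exactly. The scanner software was Agilent Feature Extraction 10.10.1.1 or 11.0.1.1, per the file headers. Deposited intensities were converted to log2, spots flagged as non-uniform or as outliers (0.612%) and control spots were left out, spots of a probe were averaged, and the 75th percentile of each array over its probes was subtracted. Accessions of 25715 of the 34127 probes matched a RefSeq gene.

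Exposed groups were set against their matched controls with limma 3.58.1 (lmFit and eBayes; R 4.3.3, statmod 1.5.0). A probe was tested if all arrays of 1 of the groups compared had it well above background. P-values were adjusted by the Benjamini-Hochberg method across every tested probe. The fits were tested on simulated data in which all arrays were independent. That simulation does not cover the likeness of replicate pairs in the groups of 4 arrays. Figures were drawn with Python and matplotlib. The 10 members were named in full, together with at most 4 genes of each list by the largest called change and the 3 genes with the highest correlation to each of FOS, FOSL1, JUN and EGR1, among probes above background on at least 30 arrays. One gene that this rule names is not reported here. Members and lists were chosen with earlier results of these data known. Alternatives were normexp (offset 50), quantile normalization, no filter on dim probes, no fold threshold, the series matrix, the methods' t-test, blocks for replicate number, slide, replicate pairs and scan day, replicates 1, 3 and 4 only at 1.5 μg/cm2, each array left out in turn and, chosen after seeing the data, means of replicates 1 and 2 and of 3 and 4. The number of arrays and the signal over background limit the precision. Arrays at 72 h whose description gave 24 h were assigned by their source name. Promoter sequences are from RefSeq, GRCh38.p14.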

Additional observations from a re-analysis of the deposited data

Results flagged for a closer look

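The response of 5 genes at 6.0 μg/cm2 and of 1 gene at 3.0 μg/cm2 differed between 24 h and 72 h by the interaction term of limma, before the fold threshold. Over all probes, 8537 of 22602 at 6.0 μg/cm2 and 4666 of 22605 at 3.0 μg/cm2 differed by the same rule. At 6.0 μg/cm2 the difference (72 h minus 24 h, log2) was 0.64 for FOSL1, −0.62 for FOS, −0.66 for JUNB, −0.69 for JUND and 0.41 for EGR1, and at 3.0 μg/cm2 it was −0.49 for JUND. The exposed arrays at 72 h were scanned on a day of their own, and the part of the scan day in these values was not tested.

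JUN in control replicate 1 of the experiment with 0.1 and 1.0 μg/cm2, at a level of 2.16, stood apart from the other 3 controls at 2.25, 2.27 and 2.26. It was the 1 array flagged among 50 groups of 4 tested, where chance flags about 1 in 20.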

How the results depend on the processing

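Of 111 member results tested, 28 were called, and none of their 399 values under alternatives changed direction: 340 kept the call and 59 fell under a threshold. Part of this was fixed in advance. The alternative with no fold threshold reuses the main fit, so all 28 calls had to be kept there. The methods' t-test, no filter on dim probes and the replicate block have the same mean differences as the main fit, so no direction could change. The calls of FOS, EGR1 (24 h) and FOSL1 (6.0 μg/cm2) against controls were among the 15 that every alternative kept. Quantile normalization kept 28 of 28, the replicate block 27, no filter on dim probes 25, normexp 19, the series matrix 18, and the methods' t-test 19 of 24. At 1.5 μg/cm2, 2 members were called, and 1 with normexp, the series matrix, no filter on dim probes, the methods' t-test, the replicate block or replicates 1, 3 and 4 only, 0 with the means of replicate pairs or within the first scan day, and 0 to 2 with 1 array left out. At 3.0 μg/cm2 and 24 h the 4 calls became 2 with normexp and 2 with the series matrix. At 3.0 μg/cm2 and 72 h the 4 became 2 with normexp, 8 with no fold threshold and 2 to 4 with 1 array left out. For 6.0 against 3.0 μg/cm2 at 24 h the 1 call became 0 with normexp, the series matrix, no filter or the t-test, 2 with no fold threshold and 0 to 1 with 1 array left out, and at 72 h 2 with slide as a random block. With no fold threshold the controls over time had 6 calls for 2 and the interaction at 3.0 μg/cm2 had 1 for 0, where leaving out 1 array gave 0 to 1. The 4 interactions at 6.0 μg/cm2 became 2 with normexp and 1 with the series matrix. The cause was not tested.

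Same-numbered exposed and control arrays had correlations of their deviations from −0.37 to −0.21 at 1.0 μg/cm2, from 0.09 to 0.46 at 1.5 μg/cm2 and from −0.20 to 0.17 at the other doses, so that not every pair was over 0.1 in any of these comparisons. Between 6.0 and 3.0 μg/cm2 they were 0.29 to 0.32 at 24 h and 0.16 to 0.63 at 72 h. At 1.5 μg/cm2, and at 24 h in the experiment with 3.0 and 6.0 μg/cm2, the number is also the slide. The replicate block changed 1 called result, FOSL2 at 1.5 μg/cm2 (log2 0.63, adjusted p no longer under 0.05).

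Over all probes, normexp moved the median at 6.0 μg/cm2 and 24 h from −0.02 to 0.09 and that of the interaction at 6.0 μg/cm2 from 0.05 to −0.13. The series matrix moved it from 0.04 to −0.07 and from 0.05 to −0.08 at 72 h, and from 0.05 to −0.07 in both interactions. The 503 probes called at 1.5 μg/cm2 became 196 with normexp, 0 with pair means, 0 within the first scan day and 2167 within the second. With normexp and the series matrix the 645 at 3.0 μg/cm2 and 24 h became 225 and 235, the 2065 at 6.0 μg/cm2 831 and 940, the 355 between these doses 15 and 97, the 1043 between them at 72 h 383 and 473, and the 4371 over time in controls 1890 and 1926. With normexp the 1289 and 3776 at 72 h became 477 and 1967 and the 1192 and 3907 interactions 534 and 2554. The share of calls that were higher went from 44.5% to 55.5% at 6.0 μg/cm2 and 24 h with normexp, from 38% to 16.8% and from 40.8% to 22.8% at 72 h with the series matrix, from 63.0% to 50.9% in the controls over time and from 44.9% to 31.2% in the interaction at 3.0 μg/cm2 with quantile normalization. Slide as a block at 3.0 μg/cm2 and 72 h could not be fitted, because too few arrays share a slide, and averaging several probes gave no other value, because each member has 1. Low signal over background limits EGR2 and EGR3 at the higher doses.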
